A study of Homo sapiens with 5 samples.

Results

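The nuclear tRNA genes are the 429 genes of tRNA biotype that the RefSeq table of the hg38 assembly places on chromosomes 1 to 22 and X, out of 58419 genes of every kind on those chromosomes. They were chosen by that annotation alone, and each was given the nearest FOXO3A peak of either cell line. A gene counted as having a peak where the peak overlapped it or lay within 100 bp. The table holds 465 tRNA genes in all, of which 22 are mitochondrial and 14 sit on other scaffolds, and these 36 were left out. Members were 70 to 108 bp long, with a median of 73.0 bp, and fell into 22 types: 20 amino acids, with initiator methionine (iMet) kept apart from elongator methionine, and selenocysteine.

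FOXO3A, a forkhead transcription factor, was mapped by CUT&Tag, where an antibody brings a protein A-Tn5 transposase to chromatin that then cuts and tags the DNA beside the antibody's target. The cells were THP-1 (3 libraries) and U-937 (2 libraries), established human lines that the labels class as acute myeloid leukemia, grown in the same serum-supplemented medium with no treatment or genetic change given, and stained with the same FOXO3A antibody. No control library was used here. Replicate 1 of each line held peaks (2272 in U-937 and 948 in THP-1 on chromosomes 1 to 22 and X), and the lists of THP-1 replicates 2 and 3 and of U-937 replicate 2 held 0. Every value below therefore rests on 1 library of a line, has no replicate check and was not tested. A list names peaks above a threshold only, so a gene without a listed peak is not shown to lack FOXO3A.

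tRNA genes are read by RNA polymerase III. The factor TFIIIC recognises promoter elements inside the gene, the A box and the B box, and places TFIIIB just upstream of the start, which recruits the polymerase. Many tRNA genes are copies. A symbol gives the amino acid letter, the anticodon and the isodecoder group, and genes of one group encode the same mature tRNA (TRG-CCC2-1 and TRG-CCC2-2 are copies 1 and 2 of a glycine tRNA). Active tRNA genes lie in open chromatin, often near promoters of protein-coding genes.

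The RefSeq promoter table (GRCh38.p14) held a window of its own for 0 of the 429 tRNA genes. Windows of neighbouring genes held bases of 27 of them, 4 of which had a U-937 peak. Shown here are the 3 of these windows with most tRNA bases, and for comparison the window that holds TRG-CCC2-2, the copy of TRG-CCC2-1 without a peak. Capitals mark the bases of the tRNA gene, and each sequence is written along the strand of the neighbouring gene. This choice was made after the values were seen.
TRG-CCC2-1, TIA1 upstream window, chr2:70248794-70249043, minus strand: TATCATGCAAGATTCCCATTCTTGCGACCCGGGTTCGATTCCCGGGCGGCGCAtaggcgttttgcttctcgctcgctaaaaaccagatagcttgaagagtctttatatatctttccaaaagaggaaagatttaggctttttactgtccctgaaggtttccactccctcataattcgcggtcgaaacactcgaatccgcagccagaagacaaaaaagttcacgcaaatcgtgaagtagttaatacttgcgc
TRG-CCC2-2, LOC100287175 window, chr16:636702-637001, plus strand: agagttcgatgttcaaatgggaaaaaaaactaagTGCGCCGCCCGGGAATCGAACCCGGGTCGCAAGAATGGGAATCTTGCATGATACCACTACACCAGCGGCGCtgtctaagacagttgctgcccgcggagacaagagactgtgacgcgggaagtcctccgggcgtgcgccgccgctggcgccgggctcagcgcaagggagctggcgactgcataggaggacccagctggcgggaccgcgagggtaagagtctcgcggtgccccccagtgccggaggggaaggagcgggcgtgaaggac
TRF-GAA1-5, LOC124903191 window, chr13:94549492-94549791, plus strand: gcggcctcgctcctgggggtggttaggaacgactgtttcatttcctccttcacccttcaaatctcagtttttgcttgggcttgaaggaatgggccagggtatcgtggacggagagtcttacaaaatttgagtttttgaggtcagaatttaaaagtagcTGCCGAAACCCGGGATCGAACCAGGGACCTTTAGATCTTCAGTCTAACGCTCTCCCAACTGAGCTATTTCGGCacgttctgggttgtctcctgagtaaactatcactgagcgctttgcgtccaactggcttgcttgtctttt
TRT-AGT1-3, LOC124904691 window, chr19:33176829-33177128, minus strand: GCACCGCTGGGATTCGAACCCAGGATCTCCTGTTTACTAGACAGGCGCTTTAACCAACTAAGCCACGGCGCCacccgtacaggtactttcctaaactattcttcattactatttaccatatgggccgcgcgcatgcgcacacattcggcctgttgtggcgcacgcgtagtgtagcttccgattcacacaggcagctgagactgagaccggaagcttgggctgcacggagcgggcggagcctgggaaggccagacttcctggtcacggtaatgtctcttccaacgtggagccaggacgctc

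The TIA1 window is shown without its last 50 bases, those past the TIA1 start, and the others in full. The U-937 peaks covered 200 of the 250 bases shown of the TIA1 window, 194 of the 300 bases of the LOC124903191 window and 202 of the 300 bases of the LOC124904691 window. In the TIA1 window the peak took in the sequence between TIA1 and the tRNA gene and reached only 3 bases into the latter. Read along the reference strand, all 53 bases of TRG-CCC2-1 in that window matched TRG-CCC2-2, the copy on chromosome 16, whose nearest U-937 peak was 46862 bp away.

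In U-937, 13 of 429 tRNA genes had a peak within 100 bp (3.03%, exact 95% interval 1.62 to 5.13, counting error only). The same rule called 2161 of all 58419 genes (3.70%), which includes long genes that offer more room for a peak. Among the 4710 other genes no longer than the longest tRNA gene, it called 8 (0.170%, interval 0.0734 to 0.334). By kind, a peak lay at 8 of 1911 miRNA genes (0.419%), 0 of 1190 snoRNA genes, 0 of 149 snRNA genes and 1640 of 19821 protein-coding genes (8.27%). The tRNA share was thus close to that of all genes, and its interval lay above that of other short genes. These shares are descriptions, as genes are not replicates and neighbouring genes can share a peak.

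**Figure D1:**
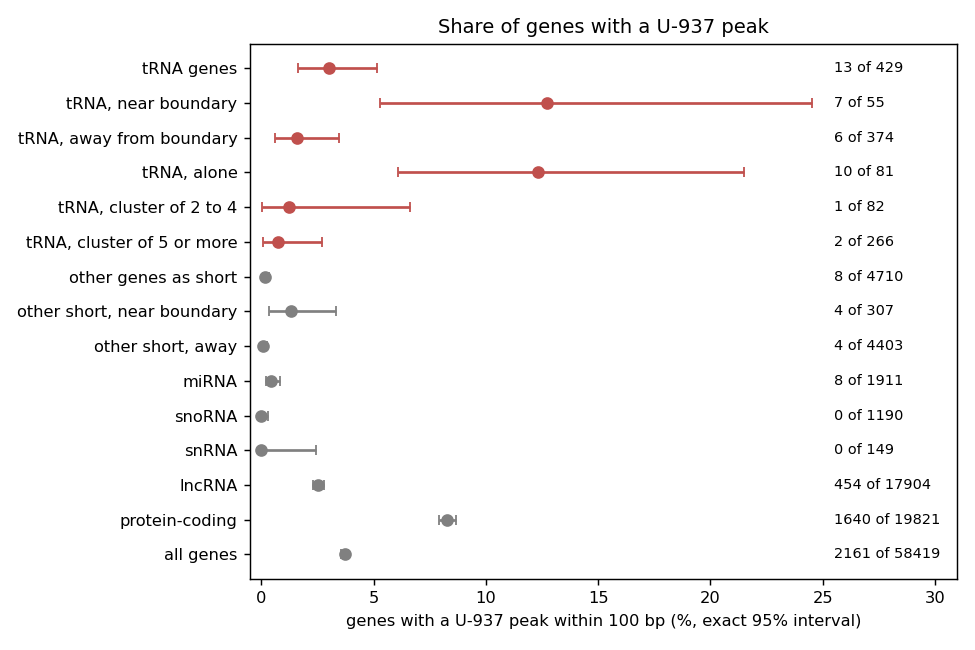
Share of genes with a U-937 peak within 100 bp (points, with exact 95% intervals; x axis in percent) for tRNA genes, their subsets (red) and other gene kinds (grey), with counts at the right. Near means within 1000 bp of a protein-coding boundary. The tRNA genes (3.03%) lie beside all genes (3.70%) and to the right of other genes as short (0.170%).

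In THP-1, 0 of 429 tRNA genes had a peak within 100 bp (interval 0.0 to 0.856%). The same rule called 318 of 58419 genes (0.544%) and 1 of 4710 other short genes (0.0212%). Both shares lie inside the tRNA interval. The nearest was at TRL-CAG1-5, a leucine tRNA gene of the large chromosome 1 cluster, 753 bp from a peak at 161471958 to 161472550 with a fold enrichment of 4.69 and a -log10 q of 2.69. No tRNA gene had a peak in both lines, which follows from the count of 0 in THP-1. For the 13 genes with a U-937 peak, the nearest THP-1 peak was between 71.6 kb (TRL-CAA4-1) and 10944986 bp (TRN-GTT2-3) away. Depth was unknown, so the counts of the lines were not compared.

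Within 1000 bp of a U-937 peak lay 20 tRNA genes (4.66%, where 4.56% of all genes did), 40 miRNA genes (2.09%) and 6 snoRNA genes (0.504%). Within 10 kb the shares were 8.39% for tRNA, 6.02% for miRNA, 7.56% for snoRNA and 13.1% for protein-coding genes. Within 100 kb they were 35.0%, 25.1%, 22.8% and 33.8% in the same order. A peak overlapped 10 tRNA genes (2.33%, against 2.98% of all genes). For 279 of the 429 tRNA genes (65.0%) the nearest U-937 peak was over 100 kb away, and the median distance was 185 kb, against 226 kb for protein-coding genes and 373 kb for all genes. In THP-1 the median was 1004555 bp for tRNA genes and 2739060 bp for all genes.

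**Figure D2:**
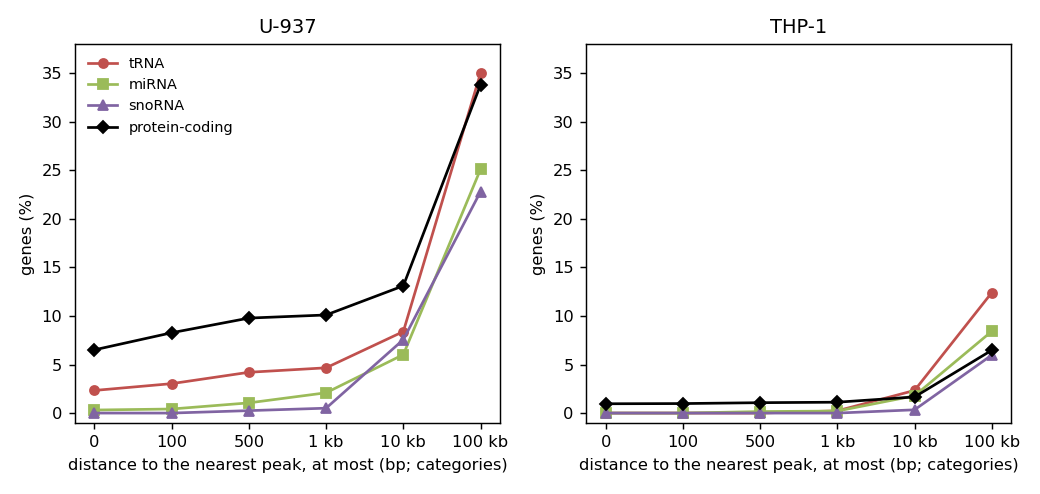
Share of genes (y axis, percent) whose nearest peak lies at or under each distance (x axis, ordered categories in bp), for tRNA, miRNA, snoRNA and protein-coding genes, in U-937 (left) and THP-1 (right). In U-937 the tRNA points start at 2.33% and the miRNA points at 0.314%, and at 100 kb the tRNA points reach 35.0%, the miRNA points 25.1% and the snoRNA points 22.8%.

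Each of the 13 genes had a peak of its own, so that 13 peaks served 13 genes. The strongest lay at TRE-TTC2-1, a glutamate tRNA gene on chromosome 13 at 44917927 to 44917998. Its peak, 44917774 to 44918558, was 785 bp wide and spanned the whole gene, with a fold enrichment of 9.81 (the authors' value over a background not stated, as for all folds here) and a -log10 q of 11.8. That fold ranked 166 of 2272. The nearest protein-coding boundary, of NUFIP1, which encodes a nuclear RNA-binding protein, was 21078 bp from the summit. TRE-TTC2-1 was the only one of the 5 tRNA peaks with a -log10 q of at least 5 that lay away from protein-coding boundaries.

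The next 5 peaks by fold all had the summit within 1000 bp of the boundary of a protein-coding gene, meaning either end of the gene. TRG-CCC2-1 (glycine, chromosome 2, 70248991 to 70249061) had a peak at 70248681 to 70248993 with a fold of 9.17 and a -log10 q of 9.83. Its summit was 3 bp from the boundary of TIA1, which encodes a stress granule RNA-binding protein, and 195 bp from the tRNA gene, the largest such distance of the 13. TRR-CCT4-1 (arginine, chromosome 7, 139340700 to 139340772) lies inside LUC7L2, a splicing factor gene, and FMC1, which share a boundary. The peak there, 139340504 to 139340724, had a fold of 8.54 and covered 25 bp of the tRNA gene, with the summit 111 bp from the shared boundary and 117 bp from the tRNA gene. In both genes the summit was nearer to the protein-coding boundary than to the tRNA gene.

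TRI-TAT1-1 (isoleucine, chromosome 19, 39412168 to 39412260) was wholly covered by a peak of 527 bp with a fold of 6.82. Its summit was 133 bp from the tRNA gene and 634 bp from PLEKHG2. TRX-CAT1-1 (initiator methionine, chromosome 1, 153671250 to 153671321) was not overlapped. Its peak ended 27 bp away, had a fold of 6.41, and had its summit 125 bp from ILF2 and 132 bp from the tRNA gene. TRR-ACG1-3 (arginine, chromosome 14, 22929701 to 22929773) lay 16 bp from a peak with a fold of 6.40. That summit lay 167 bp from PRMT5, an arginine methyltransferase gene, 66 bp from the lncRNA gene PRMT5-DT and 158 bp from the tRNA gene.

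Peaks with a fold below the list's median of 6.16 made up the other 7. TRL-CAA4-1 (leucine, chromosome 1, 248873855 to 248873960) lies inside PGBD2, a gene derived from a piggyBac transposase, 1004 bp from its boundary, and its peak had a fold of 6.03 with the summit inside the tRNA gene. TRV-CAC1-6 (valine, chromosome 6, 26538054 to 26538126) had a fold of 5.03, with the summit inside the tRNA gene and 299 bp from HMGN4, a nucleosome-binding protein gene. TRV-TAC1-1 (valine, chromosome 11, 59550629 to 59550701) had a fold of 4.95 and TRX-CAT1-8 (initiator methionine, chromosome 17, 82494721 to 82494792) a fold of 4.91, both with the summit inside the gene. These last 2 summits lay 23746 bp from OSBP and 4248 bp from NARF. The 4 peaks with a summit inside a tRNA gene covered 63 to 70 bp of it.

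TRT-AGT1-3 (threonine, chromosome 19, 33177057 to 33177130) had a fold of 4.85, with the summit 26 bp from the tRNA gene and 1232 bp from WDR88. TRF-GAA1-5 (phenylalanine, chromosome 13, 94549650 to 94549722) had a fold of 4.80, and its summit lay 154 bp from DCT, a melanin synthesis gene, and 90 bp from the tRNA gene. TRN-GTT2-3 (asparagine, chromosome 10, 22229509 to 22229582) had the weakest peak, 31 bp away. Its fold of 2.89 and -log10 q of 1.56 were the lowest values of the whole U-937 list, which it shared with other peaks at rank 2109 of 2272. The nearest protein-coding boundary, of EBLN1, was 11357 bp from that summit.

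**Figure D3:**
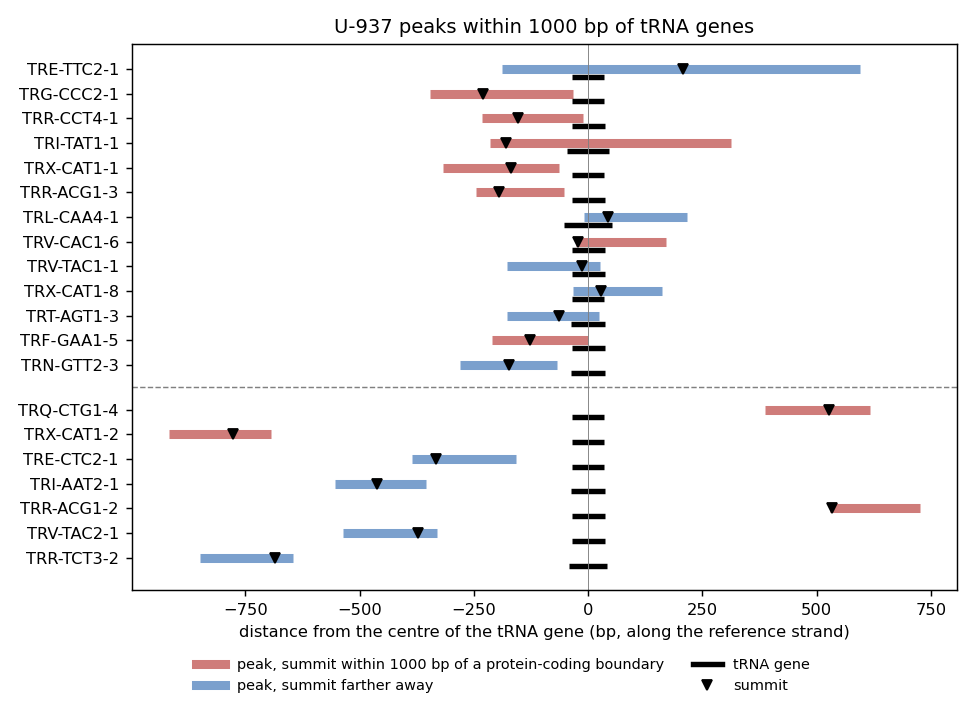
U-937 peaks within 1000 bp of tRNA genes, drawn in bp from the centre of each tRNA gene along the reference strand (x axis); red bars are peaks with the summit within 1000 bp of a protein-coding boundary, blue bars other peaks, black bars tRNA genes and triangles summits. The 13 genes above the dashed line have a peak within 100 bp, in order of fold, and the 7 below it lie farther away. For 8 of the 13 the summit is on the lower-coordinate side, for 4 inside and for 1 on the higher side.

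The summits of the 13 lay at a median of 117 bp from the tRNA gene and at most 195 bp. A summit was inside the gene in 4, at lower coordinates in 8 and at higher coordinates in 1 (TRE-TTC2-1). The gene table gives no strand, so these sides are not upstream or downstream of transcription. The protein-coding boundary was nearer to the summit than the tRNA gene was in 3 of 13 (TIA1, LUC7L2 and ILF2). The genes were picked for a peak within 100 bp of the tRNA gene, with no such condition on the boundary. Short distances from summit to tRNA gene therefore follow in part from that rule.

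The 13 peaks spread over most of the list's range of strength below its top. Their fold ranged from 2.89 to 9.81 with a median of 6.03, against a median of 6.16 for all 2272 peaks, and 6 of 13 were above the list's median. The median -log10 q was 4.38 against 4.79, the median width 213 bp against 238 bp, and 5 of 13 (38.5%) against 1074 of 2272 (47.3%) had a -log10 q of at least 5. At that threshold 5 of 429 tRNA genes kept a peak, where the rule called 1.91% of all genes. None of the 10 strongest peaks of the list lay at a tRNA gene, the highest rank being 166. The 7 tRNA peaks at a protein-coding boundary had a median fold of 6.41, against 6.59 for all 1110 boundary peaks. The other 6 had a median of 4.93, against 5.72 for the 1162 peaks elsewhere.

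**Figure D4:**
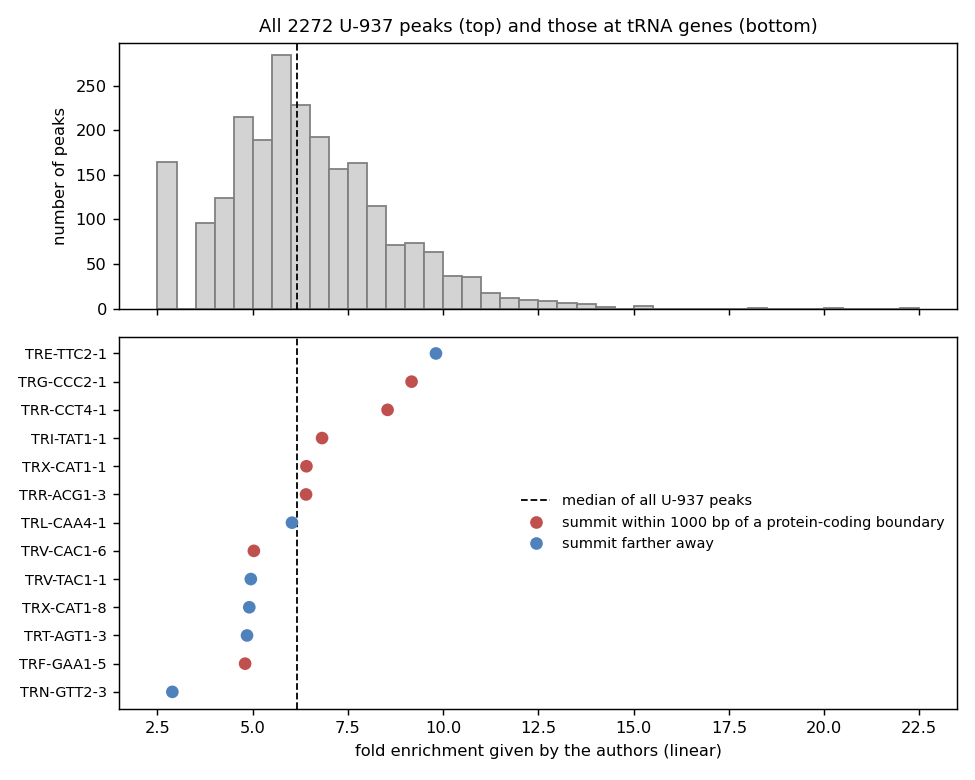
Fold enrichment given by the authors (x axis, linear) for all U-937 peaks (top, number of peaks per bin of 0.5) and for the peak of each of the 13 tRNA genes (bottom, 1 point per gene, red where the summit is within 1000 bp of a protein-coding boundary and blue elsewhere). The dashed line is the median of all peaks, 6.16, with 6 tRNA peaks to its right and 7 to its left.

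Of the 13 peaks, 7 had the summit within 1000 bp of the boundary of a protein-coding gene (53.8%, interval 25.1 to 80.8), against 1110 of 2272 in the whole list (48.9%). The tRNA genes themselves were mostly elsewhere, with 55 of 429 within 1000 bp of such a boundary. A peak lay at 7 of these 55 (12.7%, interval 5.27 to 24.5) and at 6 of the 374 others (1.60%, 0.591 to 3.46). Other short genes showed the same order at lower levels, with 4 of 307 near a boundary (1.30%, 0.356 to 3.30) and 4 of 4403 away from one (0.0908%, 0.0248 to 0.232). Of the 43 protein-coding genes next to the 55 tRNA genes, 9 had a U-937 summit within 1000 bp of a boundary (20.9%), where 1395 of all 19821 protein-coding genes did (7.04%). These 9 are not separate from the counts above, as they include the genes at the 7 tRNA peaks near a boundary. The rest were RAB11A and H4C8, whose peaks lay over 100 bp from a tRNA gene. Whether a peak at such a place belongs to the tRNA gene or to its neighbour cannot be told apart in these data.

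Peaks lay mostly at tRNA genes that stand alone. With genes joined into a cluster where they lay at most 50 kb apart, the 429 genes formed 81 single genes, 33 clusters of 2 to 4 and 16 clusters of 5 or more with 266 genes. A peak lay at 10 of the 81 single genes (12.3%, interval 6.08 to 21.5), 1 of 82 genes in clusters of 2 to 4 (1.22%, 0.0309 to 6.61) and 2 of 266 in larger clusters (0.752%, 0.0912 to 2.69). The split by cluster size was chosen after the values were seen. Nearness to protein-coding boundaries went with it. Among single genes, 25 were near a boundary and 6 of these had a peak (24.0%, 9.36 to 45.1), against 4 of 56 away from one (7.14%, 1.98 to 17.3). Clusters of 2 to 4 did not follow that order, with 0 of 15 near a boundary and 1 of 67 away from one (1.49%). Among genes of clusters of 5 or more, 15 were near a boundary with 1 peak, and 251 were away with 1 peak (0.398%, 0.0101 to 2.20).

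The large clusters held few peaks, at 2 of 266 genes (0.752%, interval 0.0912 to 2.69). The share was 3.70% over all genes and 0.170% (0.0734 to 0.334) over other short genes. These counts are therefore not below those of genes as short. On chromosome 6, which holds 154 of the 429 genes, 1 gene had a peak (0.649%), TRV-CAC1-6 in a cluster of 13 at 26521208 to 26594962. The largest cluster, 43 genes on chromosome 6 at 28474552 to 28989083, had its nearest U-937 peak 660990 bp away. Clusters of 33 genes (27478812 to 27795932), 18 genes (27158127 to 27335062), 18 genes (26673362 to 26828299), 13 genes (26286526 to 26331515) and 6 genes (57800211 to 57856473) on that chromosome had 0. So did the chromosome 1 cluster of 31 genes at 161399700 to 161540314, 233108 bp from the nearest peak, the 18 genes on chromosome 17 at 8119155 to 8227064 and the 14 on chromosome 16 at 3150674 to 3192060. Others without one were the 14 on chromosome 14 at 20609336 to 20684087, the 13 on chromosome 5 at 181164154 to 181222467, the 13 and 6 on chromosome 7 (149546540 to 149707740 and 149310190 to 149415209) and the 5 on chromosome 12 (124921755 to 124940037). The other large cluster with a peak was that of 8 genes on chromosome 11 at 59550629 to 59566452, at TRV-TAC1-1.

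By chromosome, those with at least 10 tRNA genes had 2 of 85 with a peak on chromosome 1, 0 of 18 on 5, 1 of 154 on 6, 1 of 22 on 7, 1 of 13 on 11, 1 of 19 on 14, 0 of 26 on 16 and 1 of 33 on 17. Chromosomes with fewer genes gave 2 of 4 on chromosome 13, 2 of 7 on 19, 1 of 3 on 10 and 1 of 8 on 2. The tRNA genes on chromosomes 3, 4, 8, 9, 12, 15, 18, 21, 22 and X had 0. The 13 peaks thus lay on 10 chromosomes and in 13 different clusters or single positions.

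Genes with a peak were spread over 10 of the 22 types and 12 of the 49 pairs of type and anticodon. Initiator methionine, the tRNA that starts translation, had 2 of 8 genes with a peak, TRX-CAT1-1 and TRX-CAT1-8, the 2 of the 8 outside chromosome 6. Its 6 chromosome 6 copies had none, although TRX-CAT1-2 was 658 bp from a peak of fold 6.21 whose summit lay 250 bp from the histone gene H4C8. Arginine had 2 of 26 genes with a peak and valine 2 of 30. Phenylalanine (of 11), glutamate (15), threonine (20), asparagine (21), isoleucine (23), glycine (30) and leucine (32) had 1 each. Alanine (37 genes), cysteine (29), lysine (27), serine (26), proline (20), glutamine (19), aspartate (13), tyrosine (13), elongator methionine (11), histidine (9), tryptophan (7) and selenocysteine (2) had 0. With 37 genes at most in a type, counts of 0 to 2 do not rank the types.

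**Figure D5:**
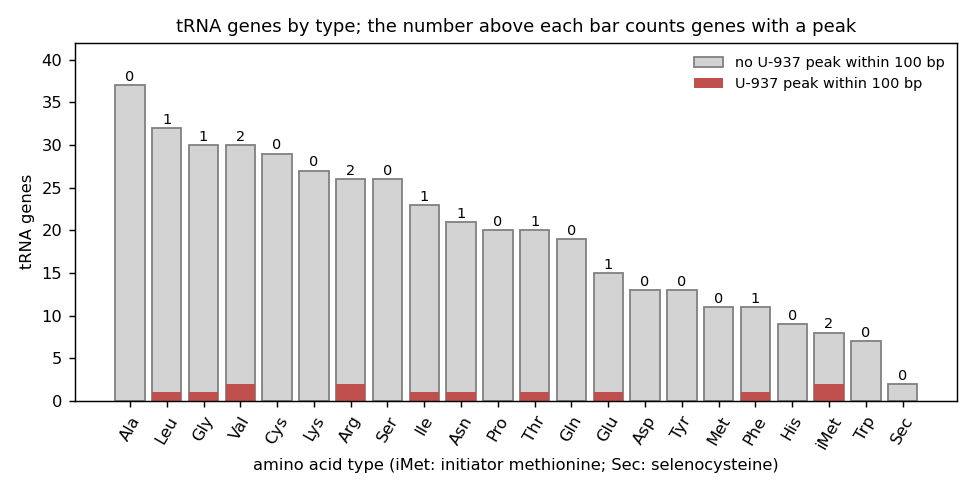
Number of tRNA genes of each amino acid type (y axis, full bar) with those that have a U-937 peak within 100 bp in red and counted above the bar. No type has more than 2 genes with a peak, and 12 of 22 types have 0.

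Within an isodecoder group, peaks were at a single copy in 11 of the 12 groups involved. Of 8 TRN-GTT2 genes, 7 TRV-CAC1 genes, 6 TRF-GAA1 genes, 3 TRR-ACG1 genes and 3 TRT-AGT1 genes, 1 each had a peak within 100 bp, and TRX-CAT1 had 2 of 8. TRE-TTC2, TRG-CCC2 and TRV-TAC1 had 1 of 2. TRI-TAT1, TRL-CAA4 and TRR-CCT4 have a single gene, so no other count was possible there. With 3.03% of all tRNA genes called, 1 peak in a group is not read as a pattern. By copy number, 10 of 222 genes with a sister copy (4.50%, interval 2.18 to 8.13) and 3 of 207 genes without one (1.45%, 0.300 to 4.18) had a peak, with overlapping intervals. Copies were counted by symbol among the analysed genes, and each gene with an unnumbered symbol was counted as having none. Some of the 207 may therefore have a copy. Reads from inside a tRNA gene can match its copies equally well. How the authors' alignment treated such reads is not given in the sources used here, and its part in these counts was not tested.

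Just outside the 100 bp limit lay 7 further genes, at 123 to 658 bp. TRE-CTC2-1 (123 bp) shared its peak with TRL-CAA4-1, TRV-TAC2-1 (295 bp) and TRR-TCT3-2 (602 bp) shared that of TRV-TAC1-1, and TRR-ACG1-2 (493 bp) that of TRV-CAC1-6. TRI-AAT2-1 (319 bp, fold 5.11) lay in the chromosome 6 cluster of 33 genes 119218 bp from the nearest protein-coding boundary. TRQ-CTG1-4 (351 bp, fold 7.94) and TRX-CAT1-2 lay by peaks at the boundaries of RAB11A, a recycling endosome GTPase gene, and H4C8. The gene just inside the limit was TRN-GTT2-3 at 31 bp, so no member lay between 31 and 123 bp.

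Motif letters were searched on both strands in the 11 distinct RefSeq windows that the tRNA peaks overlapped, at 8 of the 13 genes. The B box core GTTCGANTC was in 2 of 11 windows (18.2%), those of TIA1 and LOC124904691, against 0.255% of all 34961 windows of the same length, and in both it lay in tRNA bases. The windows were taken for their peaks at tRNA genes, and some overlap each other. That contrast therefore follows in part from the choice of windows. The LOC124903191 window, with all 73 bases of TRF-GAA1-5, had no match, so these letters can miss a tRNA gene. The A box was in 3 of 11 (27.3%, all windows 21.6%). The forkhead motif GTAAACA was in 1 of 11 (9.09%, all windows 3.42%), its core TAAACA, which that motif contains, in the same 1 (9.09%, all windows 12.3%), and the E-box CACGTG in 0 (all windows 7.27%). The forkhead letters lay inside TRT-AGT1-3 itself and inside its peak, at 33177092 to 33177098 on chromosome 19, bases 36 to 42 of the gene counted along the reference strand. In the sequence printed above they read TGTTTAC, the other strand of the motif. The other TRT-AGT1 copies, TRT-AGT1-1 and TRT-AGT1-2, encode the same mature tRNA, and their nearest U-937 peaks were 30434 and 69509 bp away. No window held their bases, so the letters were not searched there. Both are 74 bp long, as TRT-AGT1-3 is, so with the same mature tRNA they should hold the same letters. The forkhead letters are thus not shown to be particular to the copy with a peak. The windows cover only part of each peak, so no match says only that these letters are not in this stretch.

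Other genes read by RNA polymerase III had no peak within 100 bp in either line, 0 of 37 found in the table. The same rule called 3.70% of all genes in U-937 and 0.544% in THP-1, and 0.170% of other short genes in U-937, so a count of 0 among 37 is near these backgrounds. They include RN7SK, RMRP, RPPH1, the RNU6, RNY, VTRNA and RNA5S genes. The nearest was RNA5S17, a ribosomal RNA gene at the end of a tandem array, 586 bp from a U-937 peak of fold 4.87. Next among genes outside that array were RNU6ATAC, a spliceosomal RNA gene, at 9398 bp, and RPPH1, the RNA of RNase P, at 9724 bp. The median distance over the 37 genes was 33.9 kb, 17 of them being the neighbouring RNA5S copies.

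Some protein-coding genes of RNA polymerase III transcription and of tRNA production carried U-937 peaks at their boundaries, counted as a summit within 1000 bp. The polymerase list also holds factors of its other genes, such as SNAPC5, so its share is not one of tRNA production alone. Among 30 genes of RNA polymerase III and its factors there were 5 (16.7%, against 7.04% of protein-coding genes): the polymerase subunits POLR3K (fold 6.68), POLR3F (7.09) and POLR3GL (5.60), the snRNA promoter factor SNAPC5 (6.30) and MAF1, the polymerase's repressor (7.0). BRF1, a TFIIIB subunit, had a peak of fold 9.52 inside the gene, 14384 bp from a boundary. Among 21 cytosolic aminoacyl-tRNA synthetases, which charge tRNAs with amino acids, there were 4 (19.0%): FARSB (fold 10.2), YARS1 (7.02), TARS3 (4.33) and GARS1 (4.19). WARS1, another synthetase gene, had a peak of fold 4.48 inside the gene, 7851 bp from a boundary. Among 36 tRNA maturation genes there were 5 (13.9%): the methyltransferase NSUN2 (fold 8.29), the splicing endonuclease subunit TSEN34 (7.49), the RNase P subunit RPP40 (6.71), the thiolation enzyme CTU1 (6.59) and the export receptor XPOT (4.95). In THP-1 these lists had 0 such genes, and 1 polymerase list gene had a peak within 100 bp of any part of it. Of all 19821 protein-coding genes, 194 (0.979%) had a THP-1 peak within 100 bp and 222 (1.12%) within 1000 bp. Counts of 0 and 1 in lists this small are near these shares and do not show a difference between the lines. These lists are small and were chosen with earlier results known, so their shares are descriptions.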

How the data were processed

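FOXO3A CUT&Tag peak lists of THP-1 and U-937 cells were used, 1 list per library and not pooled. The build hg38 and the tools Bowtie2 and Picard come from the submitters' processing notes, which give them no role or version here. The sources used here do not name the peak caller, its background, the handling of multiply matching reads or the depth. The authors deposited narrowPeak lists without a header, read by their layout as an integer score, a fold enrichment (linear ratio), 2 columns of -log10 values (for p, then q), and positions. The deposited score was not used further. Positions are given from 1.

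Genes came from RefSeq's GRCh38.p14 table, which gives no strand or exons. On chromosomes 1 to 22 and X, 679 of 59098 genes sat out of positional order, were taken to lie on other scaffolds and were dropped. A boundary is either end of a protein-coding gene, and the boundary window was 1000 bp. Clusters ended at gaps over 50 kb. Shares have exact (Clopper-Pearson) 95% intervals for counting error only. No test was made across genes or lines, and 1 library per line left none across samples. Type and isodecoder group were read from the symbols. The lines' lists were not compared by fold.

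The choice to describe tRNA genes, the gene lists and the comparisons were made with earlier results of these data known. Which genes are members follows from the annotation alone. Names with values were the genes with a U-937 peak (at most 20), any with a THP-1 peak, every type, chromosomes with at least 10 genes, clusters of at least 5 and pathway genes with a peak (at most 6 per list). The nearest polymerase III genes and the genes just outside 100 bp were named after their values were seen. The planned tRNA promoter windows were replaced by windows of neighbouring genes. On simulated data, peaks were planted within 100 bp of tRNA genes drawn from the 429. The distance rule recovered 800 of 800 over 20 runs, with 0 false genes. This checks only that the rule was applied as written, not how well real peaks are found. Python 3.11.15, numpy 2.4.6, pandas 2.3.3, scipy 1.17.1 and matplotlib 3.10.9 were used. Alternatives covered the distance, the threshold, the summit, isodecoder groups, the boundary window and the cluster gap.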

Additional observations from a re-analysis of the deposited data

How the results depend on the processing

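The 13 tRNA genes with a U-937 peak became 20 within 1000 bp, 5 at a -log10 q of at least 5 and 6 with the summit within 100 bp. The 6 away from protein-coding boundaries became 10 within 1000 bp and 1 at -log10 q of at least 5. At that threshold the median fold of the peaks was 8.54 in place of 6.03, and the clusters with a peak were 5 in place of 13, as only the stronger peaks stay. In THP-1 the 0 tRNA genes with a peak became 1 within 1000 bp, away from protein-coding boundaries. Chosen after seeing the data, the split by cluster size gave 5 single genes at -log10 q of at least 5 in place of 10. Genes in clusters of 5 or more gave 0 there, and 1 with a gap of 10 kb, in place of 2. Only counts were scored, although the gap also changes the number of genes in each class. With a gap of 10 kb, 10 of 136 single genes (7.35%, in place of 12.3%) had a peak. In clusters of 5 or more it was 1 of 109 (0.917%, in place of 0.752%). Of 44 alternatives, the other 32 stayed within the limits set for no change (a count within 1.5 times, a median within 1 SD, a share within its interval). Some of these 32 could not change. A THP-1 count of 0 within 100 bp stays 0 under a stricter rule or another cluster gap, so the 32 overstate stability. No paired analysis was possible because 1 library of each line held peaks, and for the same reason none could be left out. For THP-1, a median fold and a boundary share of peaks at tRNA genes could not be given, as there were none. The unknown depth limits every count, since weaker sites would not be listed.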
